A study of Penicillium oxalicum with 114 samples.

Results

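POX01960 is 1 of the 9834 POX-numbered genes counted in 114 RNA-seq libraries of the filamentous fungus Penicillium oxalicum, and it was chosen by its measured CPM with 1 rule: it lay at or near 0 in every library of the POXClrB deletion mutant and in no other library. The low level in that mutant, and every other comparison of that mutant with the rest, is therefore a description here and not a finding. The labels name the deleted gene POXClrB and do not pair that name with a POX number. ClrB belongs to a family of zinc-cluster transcription factors of filamentous fungi. Its relatives, CLR-2 of Neurospora crassa and ClrB of Aspergillus nidulans, are activators needed for the expression of cellulase genes during growth on cellulose. Cellulases cut cellulose into soluble sugars, xylanases do the same for xylan, and both sets of genes are known to be induced by plant polymers and held low on glucose. The series was designed to look for genes whose transcripts go with those of cellulase and xylanase genes across strains and media, and the question followed here is whether POX01960 did so.

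The strains were a deletion mutant of POXClrB (MuPOXClrB, below dClrB, 24 libraries), a deletion mutant of POX01167 (dPOX01167, 18 libraries), deletion mutants of POX02968 and POX04420 (3 libraries each), a deletion mutant of POX07277 (9 libraries), a strain that overexpressed POX01167 from that gene's own promoter (OES1167, 3 libraries), the control strain MuKu70, which lacks POXKu70 (below Ku70, 48 libraries), and the wild type HP7-1 (6 libraries). dClrB, dPOX01167 and Ku70 were grown in a time course in which mycelium was moved from glucose medium to Avicel, a microcrystalline cellulose (AV), or to wheat bran plus Avicel (WA), for 12, 24 or 36 h. The AV libraries at 24 h are of dClrB alone. dClrB, dPOX02968, dPOX04420, OES1167 and Ku70 were also grown on the inducing carbon source for 24 h, which the culture notes give as 2% Avicel. dPOX07277 and Ku70 were grown for 24 h on Avicel to which oleic acid, linolenic acid or arachidonic acid oil was added. dClrB and dPOX01167 were also grown for 72 h from spores without transfer, and HP7-1 for 72 h on 2% glucose, on 2% wheat bran, or on wheat bran with rice straw or with bagasse. Groups had 3 libraries, apart from the 24 Ku70 libraries on the inducing carbon source and the 3 wheat-bran media, which had 1 library each. The labels of dPOX07277 also call that mutant a control strain. It is compared here as a mutant against Ku70. The labels give the POXKu70 deletion for Ku70 and not for the other mutants. They do not say whether libraries of a group came from separate cultures. The p-values therefore measure the spread between these libraries, which may be technical.

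The deposited tables were of 3 kinds that differ in depth: 30 shallow tables with 365937 to 4242956 counts, 36 deep tables with 13277742 to 14731797 counts, and 48 time-course tables with 5368155 to 8267079 counts. Levels are given as CPM, the count scaled to the library's total, and as FPKM, which also divides by gene length, where different genes are set side by side. Some libraries stood apart. The libraries labelled Ku70 on the inducing carbon source with numbers 8, 9 and 10 held 236 to 290 CPM over 9 cellulase genes. The other 21 libraries with that label held 13149 to 99559 CPM. Fold changes of POX01960 that rest on this group are therefore given with and without libraries 8, 9 and 10. The order over all groups was worked out only with them. 5 of the 6 libraries labelled dPOX01167 on AV held counts of POX01167, although that gene should be missing. It stood at 1603, 25.3 and 0 CPM after 12 h and at 95.6, 207 and 153 CPM after 36 h. In Ku70 on AV it stood at 212, 329 and 98.7 CPM after 12 h and at 1214, 1236 and 157 CPM after 36 h. These Ku70 libraries at 36 h had 2360, 2528 and 77.75 FPKM of it. Their counts thus do not cover the same length of the gene. The dPOX01167 libraries at 1603 and 25.3 CPM had 3636 and 57.4 FPKM, also above their CPM. Those at 95.6, 207 and 153 CPM, after 36 h, had 91.35, 106.6 and 75.4 FPKM. These values lay below their CPM, as in the Ku70 library at 157 CPM, so the 12 h and 36 h libraries differ in this. The reason was not tested. On WA the highest value of POX01167 in dPOX01167 was 0.84 CPM, and in the cultures that were not transferred it was at 0. The other deleted genes were at 0 in every library of dPOX04420 and dPOX07277 and at 0.359 CPM or less in dPOX02968. In OES1167, POX01167 averaged 412 CPM, against 219 CPM in Ku70. Among all genes tested, the median log2 fold change lay between -0.11 and 0.14 in every comparison below. 1 of the 3 Ku70 libraries on WA at 12 h is labelled 13 h.

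In the 24 dClrB libraries POX01960 was read 64 times among 151158450 counts, or 0.423 CPM, with an exact 95% Poisson interval of 0.326 to 0.541 CPM that covers counting error only. The gene had no count in 6 of these libraries, where a count of 0 allows up to 0.363 to 0.833 CPM (3 counts of each library's total). The highest dClrB values came from the cultures that were not transferred, with 2.41, 0.681 and 3.49 CPM, followed by AV at 36 h with 1.10, 0.420 and 1.03 CPM. No other dClrB library exceeded 0.899 CPM. Among the 90 libraries of the other strains the lowest value was 13.3 CPM, and the fewest counts were 50. Of 6357 genes counted in all 90 of these libraries, POX01960 was the only 1 whose highest value in dClrB, 3.49 CPM, lay below its lowest value elsewhere, a ratio of 0.263. The next genes by this ratio were POX05393 at 1.48, POX07758 at 1.53, POX05653 at 1.69, POX02744 at 1.70 and POX04052 at 1.71, each with its highest dClrB library above its lowest library elsewhere.

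**Figure D1:**
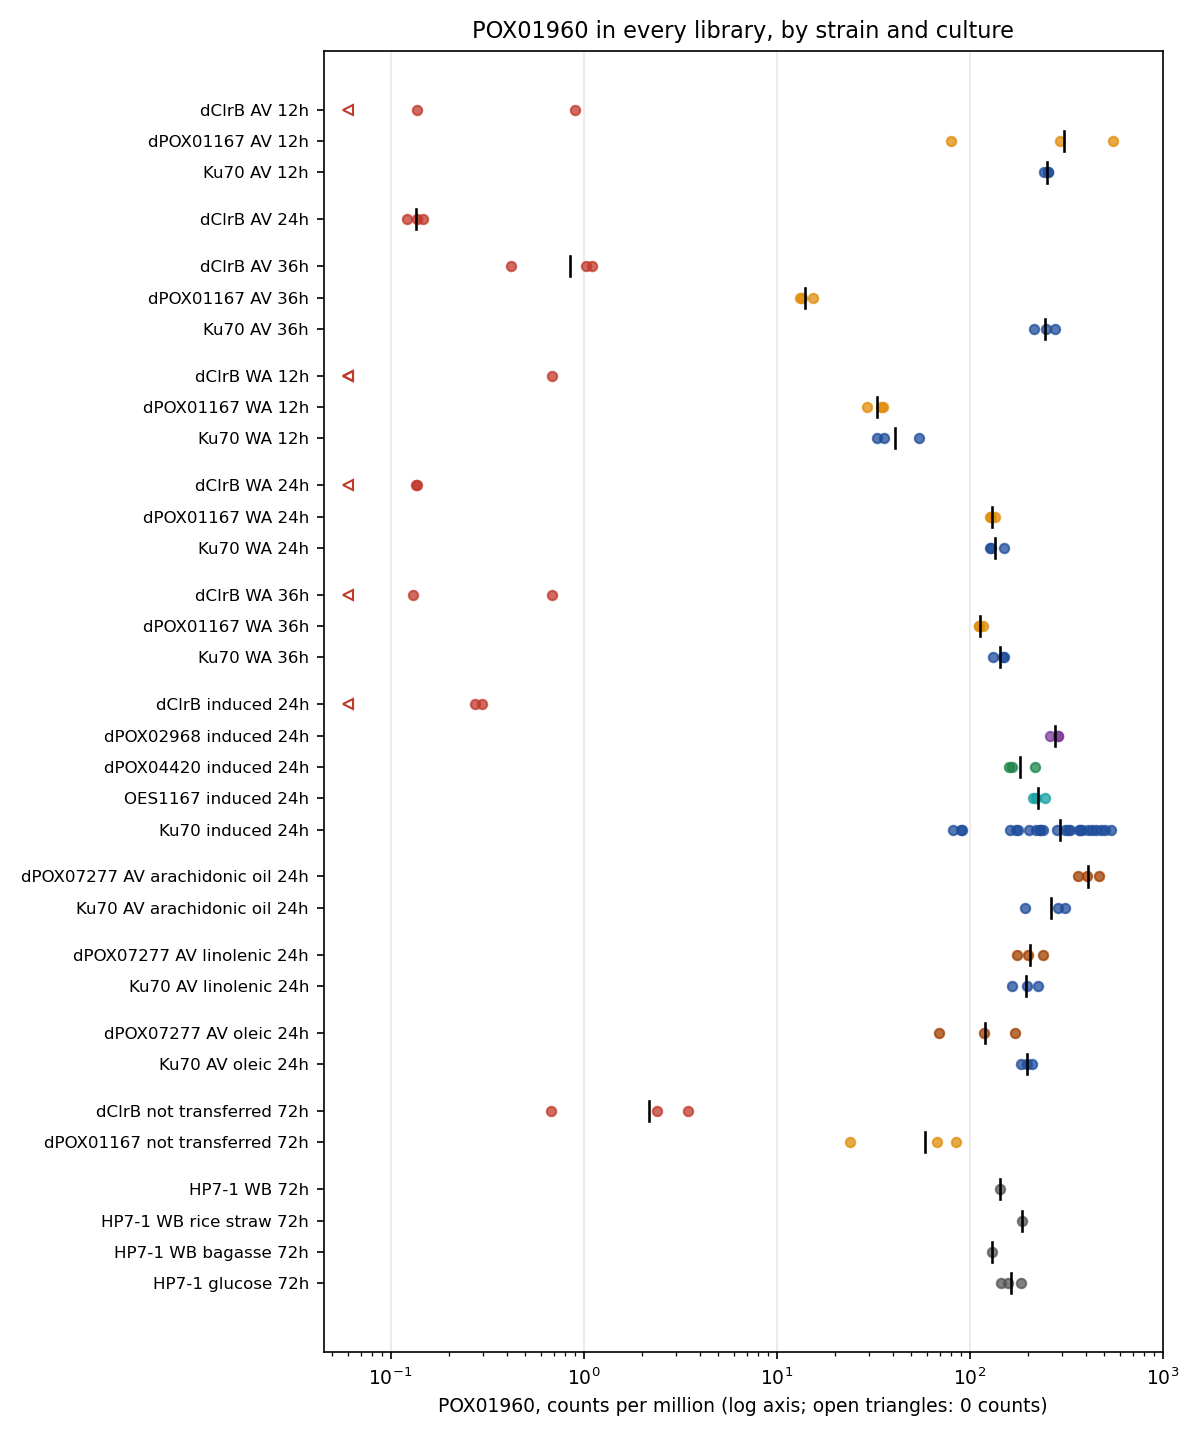
POX01960 in CPM (log axis) in all 114 libraries, 1 point per library and 1 line per group, with the black tick at the group mean where no library was at 0 and open triangles for libraries with 0 counts. dClrB libraries sit at 3.49 CPM or below, and all others at 13.3 CPM or above.

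The enzyme genes that ClrB proteins are known to activate were low in dClrB on cellulose. On the wheat-bran medium the cellulase sum lay below that of Ku70 at 12 h and 36 h and overlapped it at 24 h. Summed over 9 cellulase genes, a list known from publications of the study's group, dClrB on AV at 12 h had 314, 802 and 650 CPM, against 6669, 10475 and 9115 CPM in Ku70. On WA at 12 h dClrB had 80.0, 88.2 and 101.3 CPM, against 329, 612 and 495 CPM in Ku70. Both pairs of ranges lay apart. On WA at 24 h, where POX01960 stood at 0 to 0.137 CPM in dClrB and at 128 to 150 CPM in Ku70, the cellulase sum was 199, 629 and 460 CPM in dClrB, against 442, 347 and 415 CPM in Ku70, and the ranges overlapped. On WA at 36 h the sum was 425, 407 and 479 CPM in dClrB, against 557, 520 and 613 CPM in Ku70. These ranges lay apart. The sum is weighted to the genes with most counts, and single genes may differ from it. These values are given without a test.

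On AV at 12 h the genes numbered next to POX01960 had transcripts in dClrB. There, POX01959 averaged 27.8 ± 4.18 CPM in dClrB and 24.0 ± 5.57 CPM in Ku70 (SD, n = 3 each), and POX01958 averaged 55.9 ± 5.83 CPM in dClrB and 61.1 ± 9.55 CPM in Ku70. POX01962 averaged 26.1 ± 1.63 CPM in dClrB and 18.8 ± 2.36 CPM in Ku70. POX01961 was present in dClrB at levels that changed with the culture: it averaged 371 ± 176 CPM in dClrB and 911 ± 161 CPM in Ku70 on AV at 12 h, and 93.4 ± 17.4 CPM in dClrB and 616 ± 122 CPM in Ku70 on AV at 36 h. In dClrB cultures that were not transferred POX01961 reached 1346 ± 71.1 CPM. Whether gene numbers follow the order on the chromosome was not tested.

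Outside dClrB, POX01960 was a gene of low to high rank, depending on the culture. Its FPKM lay between the 21.4th percentile of the genes detected in a library, on AV at 36 h in dPOX01167, and the 94.7th, on AV at 12 h in dPOX01167. In Ku70 on AV at 12 h it averaged 116 ± 4.53 FPKM, beside 107 ± 6.2 FPKM for POX02968, 159 ± 28.4 FPKM for POX04420 and 26.3 ± 4.10 FPKM for POX07277, the genes deleted in other strains (SD, n = 3). The cellulase genes POX01166 and POX04786 averaged 2485 ± 265 and 1430 ± 573 FPKM there. Ordered by mean, the groups ran down from dPOX07277 with arachidonic acid oil, at 413 ± 51.4 CPM, to dPOX01167 on AV at 36 h, at 14.1 ± 1.11 CPM (SD, n = 3 each). Between neighbours in this order, with the dClrB groups included, the ranges overlapped apart from breaks at 4 of 32 steps. Neighbours in an order by mean are likely to overlap, so this does not make the levels continuous. The breaks lay below HP7-1 on glucose, where the next group was a single wheat-bran library, below dPOX01167 on WA at 36 h, below dPOX01167 on WA at 12 h, and above dClrB. The lower end outside dClrB held dPOX01167 that was not transferred (85.4, 24.0 and 67.7 CPM), both strains on WA at 12 h, and dPOX01167 on AV at 36 h.

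In the control strain WA cultures had less POX01960 transcript than AV cultures at 12 h, and the gap was smaller at 36 h. On WA at 12 h POX01960 stood at 33, 54.7 and 36.1 CPM in Ku70, against 242, 256 and 256 CPM on AV at 12 h. The value of 54.7 CPM is from the library labelled 13 h, and the ranges of the 2 media lay far apart. The level on WA was 5.61-fold lower (log2 fold change -2.49, SE 0.43, adjusted p = 6.29e-05, edgeR quasi-likelihood test with Benjamini-Hochberg adjustment, used for every adjusted p below unless another test is named). A gene is called changed here at an adjusted p under 0.05 and a change of at least 2-fold, which 28.4% of the 8111 genes tested met in this comparison. In mycelium sequenced in bulk, fewer expressing cells and less RNA per cell cannot be told apart. At 36 h Ku70 had 149, 133 and 150 CPM on WA, against 216, 276 and 249 CPM on AV. These ranges did not overlap either, but the difference was not called (log2 fold change -0.55, 95% interval -1.40 to 0.29, adjusted p = 0.366), where 19.4% of genes were. The model took its spread from all 10 time-course groups of both strains; with the 6 libraries alone the log2 fold change was -0.60 with an adjusted p of 0.0214, still under 2-fold.

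On WA, Ku70 gained POX01960 transcript with time. It had 150, 128 and 130 CPM at 24 h, and the rise over 12 h was called (log2 fold change 1.57, SE 0.42, adjusted p = 0.0067, against 15.2% of genes called). At 36 h the rise over 12 h was 3.63-fold (log2 fold change 1.86, SE 0.42, adjusted p = 0.0011, against 23.9% of genes). No difference was called between 36 h and 24 h on WA (0.29, 95% interval -0.55 to 1.14, adjusted p = 0.826, 5.79% of genes called) or between 36 h and 12 h on AV (-0.07, 95% interval -0.92 to 0.77, adjusted p = 0.984, 11.1% of genes called). The change with time differed between WA and AV by 1.93 on the log2 scale (SE 0.58, adjusted p = 0.0124, against 27.3% of genes called). With the dClrB libraries added to the model, the rise at 24 h over 12 h had an adjusted p of 0.0515 and the difference in change between the media one of 0.0766, neither under 0.05.

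Between WA and AV at 12 h the cellulase genes moved the same way as POX01960 and further. 7 of the 9 fell and none rose, with a median log2 fold change of -5.46, where 15.9% of all genes fell. POX04786 fell by 10.46 (SE 1.22) on the log2 scale, and the log2 fold change of POX01166 was -10.12 (SE 0.80). On WA at 12 h POX04786 had 0, 1.58 and 1.79 CPM, so the size of its fold change rests on few counts. Of 4 xylanase genes from the same source, 2 fell and POX08990 rose (log2 fold change 1.99, SE 0.36), where 12.6% of all genes rose. At 36 h 6 of 9 cellulase genes and 3 of 4 xylanase genes were lower on WA than on AV, with medians of -2.90 and -3.04, where 9.39% of all genes were lower. On WA at 36 h against 12 h, 5 cellulase genes rose and 2 fell (median 2.19), where 13.9% of all genes rose and 10% fell. Of the xylanase genes 2 fell and none rose. Summed over the list, the cellulase genes stood at 563 ± 47.0 CPM on WA at 36 h and 479 ± 142 CPM on WA at 12 h, against 12121 ± 1596 CPM on AV at 36 h and 8753 ± 1928 CPM on AV at 12 h (SD, n = 3 each). Per length, the summed cellulase FPKM was 5.34 times that of POX01960 on WA at 36 h, 3.16 times on WA at 24 h and 13.2 times on WA at 12 h. On AV it was 85.2 times at 36 h and 61.7 times at 12 h.

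POX06835, a gene of the cellulase list, had the same calls as POX01960 in the 3 comparisons that follow. It fell by 4.54 on the log2 scale on WA against AV at 12 h (SE 0.52, adjusted p = 4.32e-07). On WA it rose at 24 h over 12 h (3.64, SE 0.50, adjusted p = 1.27e-05), and at 36 h its difference between WA and AV was not called (-0.58, SE 0.45, adjusted p = 0.395). It was singled out after its values were seen.

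**Figure D2:**
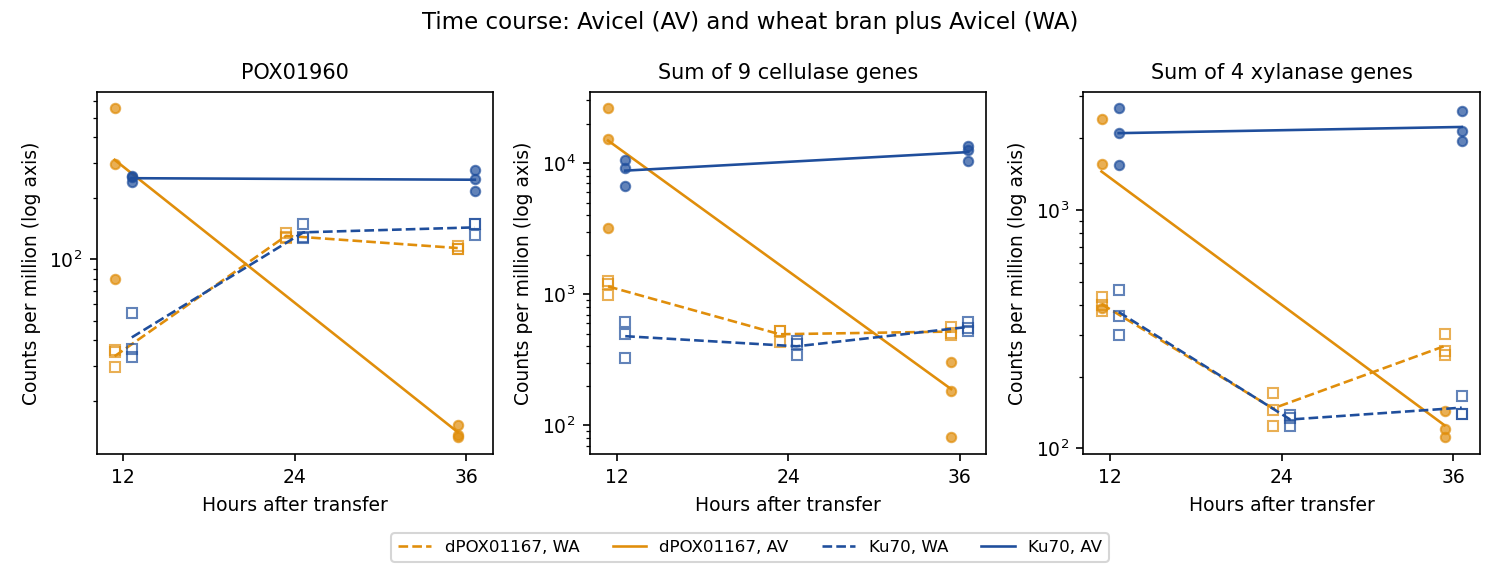
CPM (log axes) of POX01960, of the sum of 9 cellulase genes and of the sum of 4 xylanase genes against hours after transfer, with 1 symbol per library (open squares for WA, filled circles for AV, which has no point at 24 h), lines through group means, and the 2 strains set slightly apart at each time. On WA the POX01960 level in Ku70 averaged 144 CPM at 36 h, against 247 CPM on AV, while the cellulase sum on WA stayed at 563 CPM, against 12121 CPM on AV.

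On AV, POX01960 was far lower at 36 h in the libraries labelled dPOX01167 than in Ku70. At 12 h they had 554, 79.7 and 294 CPM, against 242, 256 and 256 CPM in Ku70. They were scattered on both sides of the control, and no difference was called (log2 fold change 0.14, 95% interval -0.70 to 0.99, adjusted p = 0.871, with 16% of genes called). At 36 h they had 13.6, 13.3 and 15.4 CPM, against 216, 276 and 249 CPM in Ku70. This was an 18.1-fold lower level (log2 fold change -4.18, SE 0.46, adjusted p = 3.19e-07), where 25% of genes were called. All 3 of these libraries hold counts of POX01167, at 95.6, 207 and 153 CPM, against 1214, 1236 and 157 CPM in Ku70. The libraries at 207 and 153 CPM are not below the lowest Ku70 library by more than a few CPM, so the gene's own level does not bear out the deletion label. The part of this in the result was not tested. The difference between strains changed from 12 h to 36 h by -4.32 (SE 0.60, adjusted p = 1.16e-05, against 23.8% of genes). At 36 h 8 of the 9 cellulase genes also fell in the libraries labelled dPOX01167 (median log2 fold change -6.11, where 15.4% of all genes fell), among them POX05587 (-9.17, SE 0.76) and POX01166 (-9.03, SE 0.76), and all 4 xylanase genes fell (median -3.78).

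Among the groups of 3, dPOX01167 on AV after 12 h had the widest spread of POX01960, with an SD of 238 CPM, and the cellulase genes had the same order as POX01960 in its libraries. The summed cellulase level was 26076, 3223 and 15196 CPM in the libraries with 554, 79.7 and 294 CPM of POX01960. The ratio of summed cellulase FPKM to POX01960 FPKM was 83.4, 70.1 and 88.4 in these libraries, against 51.5, 71.4 and 62.1 in the Ku70 libraries. The ratio of 70.1 lay inside the Ku70 range, and 83.4 and 88.4 lay above it. POX01167 itself was at 1603, 25.3 and 0 CPM in them. Its counts on AV also differed widely between libraries of Ku70, as given above, so its order is not compared with that of POX01960. The part of POX01167 in the levels was not tested.

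On WA no difference was called between dPOX01167 and Ku70. At 12 h dPOX01167 had 29.4, 34.9 and 35.7 CPM, against 33, 54.7 and 36.1 CPM in Ku70 (log2 fold change -0.35, 95% interval -1.20 to 0.50, adjusted p = 1, with 0.111% of genes called). At 24 h dPOX01167 had 135, 129 and 127 CPM, against 150, 128 and 130 CPM in Ku70 (-0.05, 95% interval -0.89 to 0.80, adjusted p = 1, 0.037% of genes). At 36 h dPOX01167 had 112, 112 and 117 CPM, all below the 149, 133 and 150 CPM of Ku70 (-0.44, 95% interval -1.29 to 0.40, adjusted p = 1, 0.247% of genes). None of the 13 cellulase and xylanase genes was called at any of these times. The log2 difference between dPOX01167 and Ku70 at 36 h was higher on WA than on AV by 3.73 (SE 0.60, adjusted p = 7.65e-05, against 19.5% of genes called).

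On the inducing carbon source Ku70 ranged from 82.6 to 541 CPM, with a median of 297 CPM over 24 libraries. The 3 lowest were libraries 8, 9 and 10, at 90.6, 91.7 and 82.6 CPM, and the other 21 lay between 162 and 541 CPM. In libraries 8, 9 and 10 the summed cellulase FPKM was 2.83 to 3.25 times that of POX01960, near the ratios on WA at 24 h. dPOX02968 had 286, 286 and 260 CPM, inside the Ku70 range (log2 fold change -0.11, 95% interval -1.02 to 0.79, adjusted p = 0.907, with 1.51% of genes called). Without libraries 8, 9 and 10 the value was -0.24 (adjusted p = 0.687), and its sign turned, at 0.20, against the 12 deep Ku70 libraries alone. Against Ku70 1F, 1S and 1T it was -0.75 (adjusted p = 0.000274, under 2-fold).

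dPOX04420 had 219, 167 and 160 CPM, in the lower part of the Ku70 range. Against all 24 Ku70 libraries this was no call (-0.87, 95% interval -1.84 to 0.10, adjusted p = 0.368, with 1.62% of genes called), nor was it without libraries 8, 9 and 10 (-1.01, adjusted p = 0.102). The dPOX04420 tables are shallow. Against the 12 shallow Ku70 libraries the value was -1.17 (adjusted p = 0.246). Against the 9 of them that remain without 8, 9 and 10 POX01960 was called lower (-1.47, adjusted p = 0.000111), and so it was against Ku70 1F, 1S and 1T alone (-1.51, adjusted p = 2.94e-05). OES1167 had 245, 222 and 214 CPM, inside the Ku70 range (-0.39, 95% interval -1.33 to 0.55, adjusted p = 0.728, with 0.211% of genes called). Without libraries 8, 9 and 10 its value was -0.50 (adjusted p = 0.456). It was called lower against Ku70 1F, 1S and 1T (-1.02, adjusted p = 2.97e-05), which had 413, 454 and 429 CPM and are shallow tables, whereas the OES1167 tables are deep; against the 12 deep Ku70 libraries the value was -0.02 (adjusted p = 0.972).

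Whether the cellulase and xylanase genes were called in these 3 strains depended on the control libraries. With all 24 Ku70 libraries none was, with cellulase medians of 0.31 in dPOX02968, -1.58 in dPOX04420 and -0.51 in OES1167. In dPOX04420 the summed cellulase level was 17960, 13476 and 17445 CPM, against 75918 to 99559 CPM in the 9 shallow Ku70 libraries other than 8, 9 and 10. Against these 9 libraries, all 9 cellulase genes and all 4 xylanase genes were lower in dPOX04420 (medians -2.53 and -3.54), where 5.83% of all genes were lower. Against Ku70 1F, 1S and 1T all 13 were lower too, where 7.56% of all genes were. Against the 21 Ku70 libraries of both kinds of table without 8, 9 and 10, 1 cellulase gene, POX06835, and 1 xylanase gene, POX00063, were lower (medians -1.77 and -3.03), where 1.69% of all genes were.

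In dPOX02968 and OES1167 neither list had a call without libraries 8, 9 and 10, where 2.58% and 0.986% of all genes were called. Against the 12 deep libraries, the kind of table that both strains have, neither list had one either, with 5.31% and 0.981% of all genes called. There the cellulase median was 1.13 in dPOX02968 and 0.18 in OES1167. Against the shallow Ku70 1F, 1S and 1T, the cellulase gene POX01166 was lower and the xylanase genes POX08484 and POX08990 were higher in dPOX02968, where 4.04% of all genes were lower and 10.1% higher. In OES1167 8 cellulase genes and the xylanase genes POX06783 and POX08990 were lower against those 3 libraries, where 9.13% of all genes were. The part of the kind of table in these differences was not tested.

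Among the Ku70 libraries on the inducing carbon source, the shallow ones other than 8, 9 and 10 fell into 2 sets. The set with less POX01960 had the higher cellulase level. No relation was shown in the deep tables. The 24 libraries fall into separate clusters by kind of table and by libraries 8, 9 and 10, so no correlation is given over all of them. Over the 9 remaining shallow libraries the correlation of the summed cellulase level with POX01960 was negative (Pearson r -0.77, exact permutation p = 0.0174, Spearman rho -0.63, p = 0.076), and over 4 correlations of this kind neither held after adjustment (adjusted p = 0.0697 and 0.152). Without the 2 libraries farthest from the POX01960 median r was -0.80 (n = 7, exact permutation p = 0.0319). With TMM-scaled CPM over the 9 libraries r was -0.82 (exact permutation p = 0.00646) and rho -0.85 (exact permutation p = 0.00607), both unadjusted. The xylanase sum also had a negative correlation in these 9 libraries (r -0.69, exact permutation p = 0.0449, adjusted p = 0.0898, and rho -0.68, exact permutation p = 0.0503, adjusted p = 0.152). Without the 2 farthest libraries its r was -0.92 (n = 7, exact permutation p = 0.000397), and with TMM-scaled CPM it was -0.74 (exact permutation p = 0.0258). These 9 libraries form 2 sets. Libraries 3, 5 and 6 had 331 to 381 CPM of POX01960 and 91298 to 99559 CPM of the cellulase genes. Libraries 1F, 1S, 1T, 2, 4 and 7 had 413 to 541 CPM and 75918 to 81567 CPM. The permutations treat all 9 as exchangeable, so their p-values cannot tell this split from a trend, and a trend within a set was not tested. Over the 12 deep libraries r was 0.06 (rho 0.27, permutation p = 0.858 and 0.392, adjusted p = 0.858 and 0.522), and for the xylanase sum it was 0.14 (permutation p = 0.651). The cellulase sum itself splits those 12 into libraries 11, 12, 13 and 19, at 43671 to 53517 CPM with 204 to 232 CPM of POX01960, and 8 libraries at 13149 to 24107 CPM with 162 to 375 CPM of POX01960. Within the 8, a subset drawn by the cellulase sum itself, r was 0.75 (exact permutation p = 0.0359). Without the 2 farthest of them it was 0.51 (n = 6, exact permutation p = 0.294), so r was lower and, with fewer libraries, its p was above 0.05. Libraries 20 and 21 of the 8 were nearly alike over all genes (chi-square per degree of freedom 1.92, against 210 between 20 and 22). The permutations of the deep libraries also treat all of them as exchangeable. Taken gene by gene over all genes, no permutation correlation with POX01960 had an adjusted p under 0.05 in the deep libraries (0.0% of 8591 genes by Pearson and by Spearman), where 846 genes by Pearson and 642 by Spearman had an unadjusted p under 0.05. In the 9 shallow libraries 4.27% of 8354 genes did by Pearson, among them the xylanase genes POX00063 (r -0.93, permutation adjusted p = 0.0327) and POX08484 (r -0.86, permutation adjusted p = 0.0496) and POX04420 (r 0.89, permutation adjusted p = 0.0467). By Spearman 0.754% of genes did, and none of these 3.

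**Figure D3:**
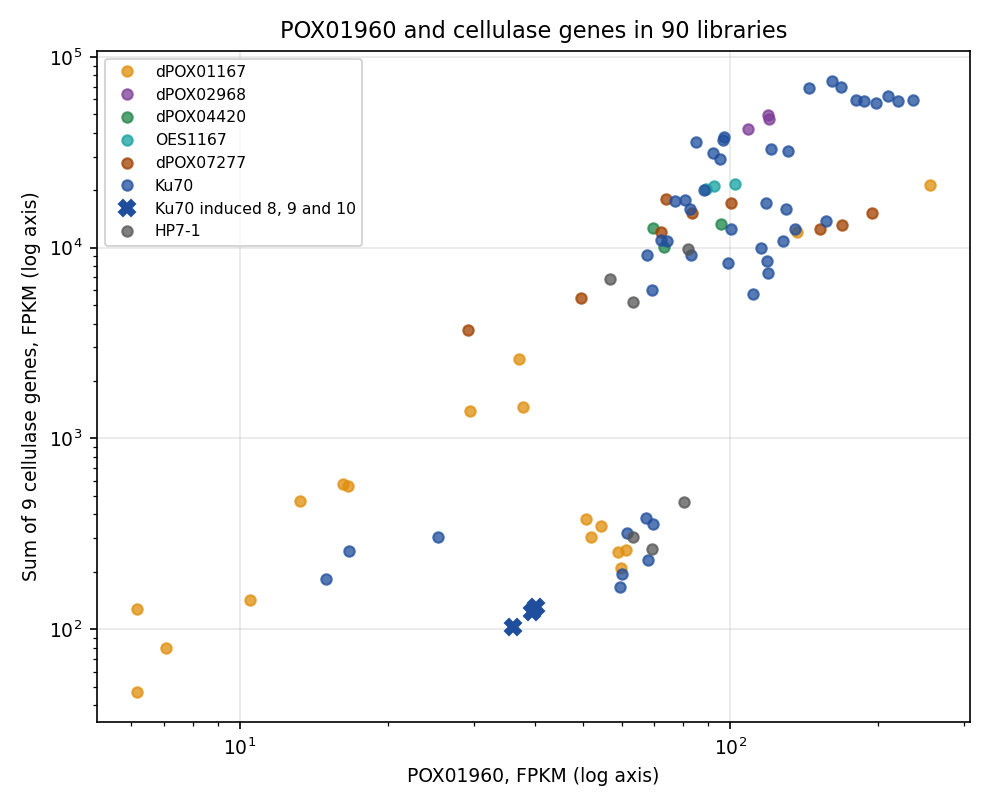
Summed FPKM of 9 cellulase genes against the FPKM of POX01960 (log axes) in the 90 libraries outside dClrB, 1 symbol per library, with crosses for Ku70 libraries 8, 9 and 10 on the inducing carbon source. At similar levels of POX01960 the cellulase sum spans a wide range: a library of HP7-1 on wheat bran with bagasse has 6881 FPKM at 56.9 FPKM of POX01960, and a library of Ku70 on WA at 24 h has 167 FPKM at 59.5 FPKM.

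With lipids in the medium, the difference in POX01960 between dPOX07277 and Ku70 depended on the lipid. With arachidonic acid oil dPOX07277 had 365, 406 and 467 CPM, against 193, 314 and 288 CPM in Ku70. All 3 mutant libraries lay above the controls, with an increase of 1.57-fold, short of the 2-fold needed for a call (log2 fold change 0.65, SE 0.22, adjusted p = 0.0351), where 14.4% of genes were called. Without the control library at 193 CPM it was 0.47 (adjusted p = 0.144). With linolenic acid dPOX07277 had 177, 240 and 200 CPM, against 199, 166 and 227 CPM in Ku70, and the ranges overlapped (0.07, 95% interval -0.39 to 0.53, adjusted p = 0.845, 14.8% of genes called). The Ku70 library at 227 CPM also held 40880 CPM of the cellulase genes, against 12549 and 8182 CPM in the other Ku70 libraries with linolenic acid. With oleic acid dPOX07277 had 69.6, 173 and 118 CPM, against 211, 184 and 198 CPM in Ku70. Here all 3 mutant libraries lay below the controls, again by less than 2-fold (-0.55, SE 0.22, adjusted p = 0.0374, 32.9% of genes called), and without the mutant library at 69.6 CPM the value was -0.44 (adjusted p = 0.104). The cellulase sum ran in the same order as POX01960 in these mutant libraries, at 5612, 17210 and 7928 CPM. They also differed from each other over all genes, with a chi-square per degree of freedom of 186 to 794 between pairs. Pairs of Ku70 libraries with oleic acid had 38.5 to 68.1. The difference between strains was higher with arachidonic acid oil than with oleic acid by 1.204 on the log2 scale (SE 0.31, adjusted p = 0.0185, against 17.9% of genes called). Fitted to the 4 groups alone it was 1.28 with an adjusted p of 0.061.

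Several enzyme genes were lower in dPOX07277 with arachidonic acid oil, where POX01960 was higher by less than 2-fold and was not called. With arachidonic acid oil 4 of 9 cellulase genes and all 4 xylanase genes fell in dPOX07277 (medians -1.25 and -2.23, where 6.26% of all genes fell). POX07535 fell by 3.76 (SE 0.62, adjusted p = 0.000281). POX06835 was the cellulase-list gene that rose there (1.21, SE 0.30, adjusted p = 0.0065, where 8.16% of all genes rose), and it also rose with linolenic acid (1.95, SE 0.31) and with oleic acid (1.70, SE 0.31). With oleic acid 4 cellulase genes fell and 1 rose, and 1 xylanase gene rose, where 10.5% of all genes fell and 22.4% rose. The summed cellulase FPKM was 79.5 ± 2.77 times that of POX01960 in dPOX07277 with arachidonic acid oil, against 246 ± 26 times in Ku70 with that oil (SD, n = 3 each). In Ku70, no pair of lipids had a called difference in POX01960. Arachidonic acid oil against linolenic acid gave 0.42 (95% interval -0.05 to 0.88, adjusted p = 0.335, 2.22% of genes called), arachidonic acid oil against oleic acid 0.39 (-0.08 to 0.85, adjusted p = 0.378, 1.54% of genes), and linolenic acid against oleic acid -0.03 (-0.49 to 0.43, adjusted p = 0.976, 0.165% of genes). The 3 lipid groups together were not called against Ku70 on the inducing carbon source (-0.41, 95% interval -0.97 to 0.14, adjusted p = 0.26, 9.5% of genes called). Without libraries 8, 9 and 10 the value was -0.55 (adjusted p = 0.04, under 2-fold), and against the 12 deep libraries alone -0.06.

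**Figure D4:**
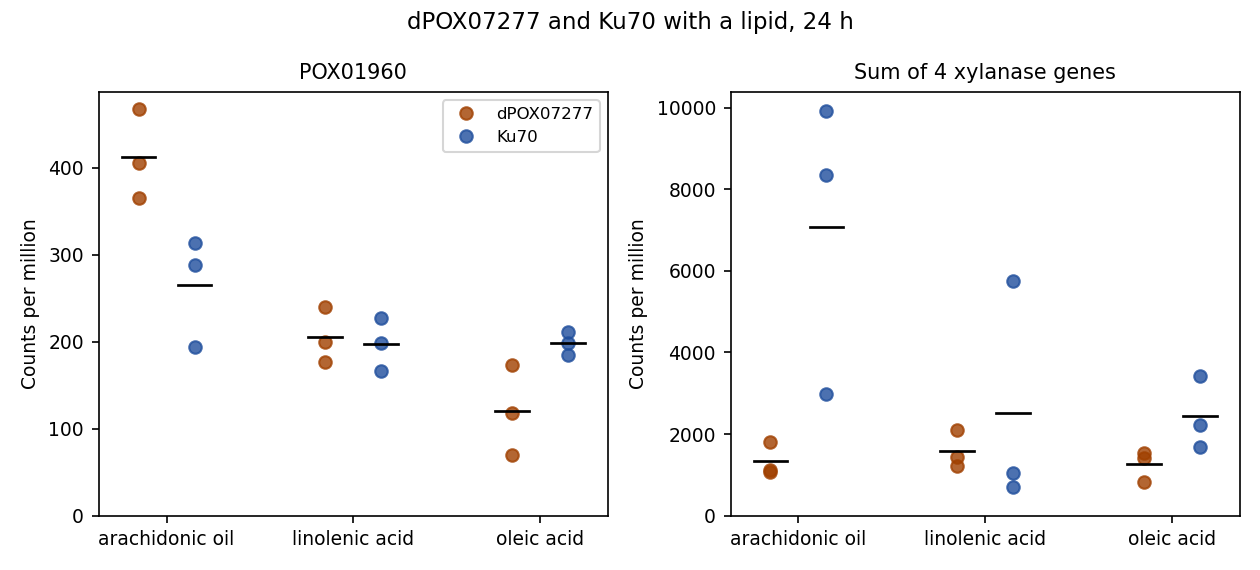
CPM of POX01960 and of the sum of 4 xylanase genes with each lipid at 24 h, dPOX07277 left of Ku70, 1 point per library and a black bar at the mean (n = 3). POX01960 in dPOX07277 lies above Ku70 with arachidonic acid oil and below it with oleic acid, while the xylanase sum in dPOX07277 averaged 1332 CPM with arachidonic acid oil, against 7082 CPM in Ku70.

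In the wild type no difference in POX01960 was detected between wheat bran and glucose, while the enzyme genes rose on wheat bran. It had 145 CPM on wheat bran, 188 CPM with rice straw and 130 CPM with bagasse, against 186, 146 and 158 CPM on glucose. The ranges overlapped, and no difference was called with the 3 wheat-bran media taken as 1 group (log2 fold change -0.44, 95% interval -1.01 to 0.12, adjusted p = 0.232), where 22.1% of genes were called. These are shallow tables, with 58 to 585 counts of POX01960 in each, and the wheat-bran libraries come from 3 different media. In the same libraries 8 of 9 cellulase genes and 4 of 4 xylanase genes rose on wheat bran, with medians of 5.38 and 6.65, where 11.5% of all genes rose, among them POX07535 (7.80, SE 0.49) and POX08990 (9.37, SE 0.84). The summed cellulase FPKM was 82.1 times that of POX01960 on wheat bran, 121 times with rice straw and 121 times with bagasse, against 4.81 ± 0.990 times on glucose (SD, n = 3). The neighbour in numbering, POX01961, also rose (3.39, SE 0.31, adjusted p = 5.72e-05).

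**Figure D5:**
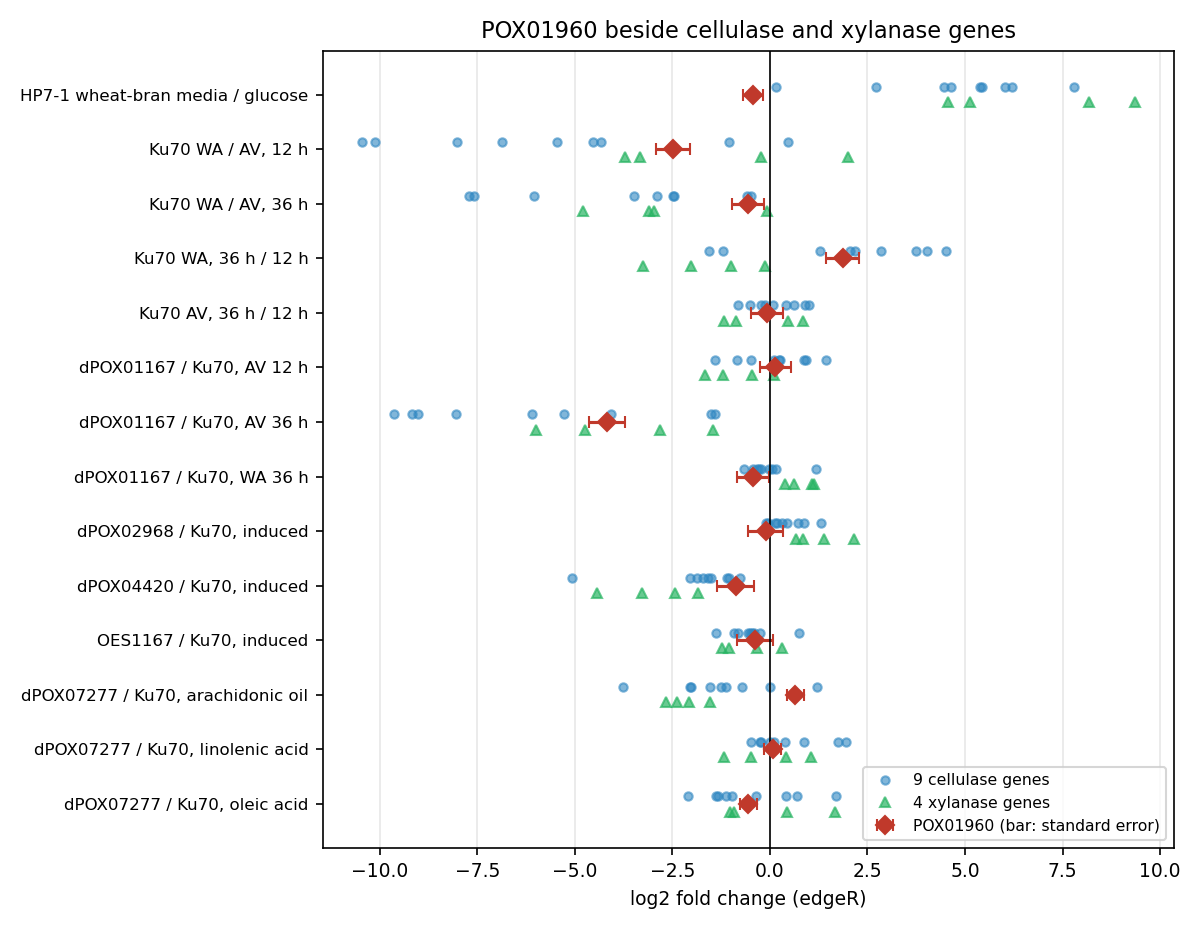
log2 fold changes from edgeR for POX01960 (diamonds, bars of 1 standard error), 9 cellulase genes (circles) and 4 xylanase genes (triangles) in 14 comparisons, the first-named group over the second. POX01960 stays near 0 in HP7-1 on wheat bran while 8 of 9 cellulase genes rise, and lies at -4.18 for dPOX01167-labelled libraries against Ku70 on AV at 36 h, where 8 of 9 fall.

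Ranked over all 25 groups outside dClrB, POX01960 and most cellulase genes nevertheless ran in a like order. The Spearman rho of group means of log2(FPKM + 1) was 0.80 for POX01166, the highest of 7221 genes with at least 10 CPM on average, where the median gene had 0.02 and 0.402% of genes reached 0.7. The next were POX06051, POX01937, POX07871 and POX07641, at 0.80, 0.80, 0.79 and 0.79. Of the other cellulase genes POX05587 had 0.77, POX04786 0.77, POX05571 0.73, POX05570 0.70, POX03641 0.58, POX02740 0.51, POX06835 0.45 and POX07535 0.06. The xylanase genes had 0.65 (POX08484), 0.57 (POX00063), 0.53 (POX06783) and 0.11 (POX08990). The genes deleted or overexpressed in other strains had 0.61 (POX01167), 0.50 (POX04420), -0.35 (POX02968) and -0.44 (POX07277). The groups ranked include those in which the gene itself was deleted or overexpressed, so these 4 values partly reflect the genotypes. POX01961 had 0.73, whereas POX01958, POX01959 and POX01962 lay between -0.19 and -0.02. The mean of Ku70 on the inducing carbon source includes libraries 8, 9 and 10, and the groups labelled dPOX01167 on AV are ranked too. The order was not worked out without them. Groups that share a kind of table, a medium and a strain are not independent points, so the rho values have no p. They measure order and not proportion: the mean ratio of summed cellulase FPKM to POX01960 FPKM ran from 3.16 in Ku70 on WA at 24 h to 401 in dPOX02968 on the inducing carbon source.

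Over the 10 time-course groups of dPOX01167 and Ku70, POX02478, POX02858 and POX06526 came first, each at 0.99, followed by POX06407 and POX07871 at 0.98, among 6724 genes of which 9.0% reached 0.7. Of the cellulase genes POX01166 had 0.89 there, POX04786 0.84, POX05570 0.82, POX05571 0.81, POX02740 0.79, POX06835 0.72, POX05587 0.68, POX03641 0.41 and POX07535 -0.079. The xylanase genes had 0.61 (POX08484), 0.45 (POX06783), 0.43 (POX00063) and -0.055 (POX08990). The groups labelled dPOX01167 on AV, whose libraries mostly held counts of POX01167, are among these 10. The order was not worked out without them. The level of POX07871 was 39.7 ± 5.39 CPM on WA and 126 ± 15.4 CPM on AV in Ku70 at 12 h (SD, n = 3 each). The genes so named have no description in the files.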

How the data were processed

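Each library had 1 deposited table per gene with expected counts, FPKM and, not used here, TPM, per the file headers. RSEM 1.2.12, Bowtie2 2.1.0, DESeq2 and BWA 0.7.10-r789 are named in the submitters' processing notes, without their roles. Genome build and annotation are not given in the sources used here. As deposited, the authors' FPKM served for levels per length and patterns. The authors' expected counts, deposited without normalization, were rounded to whole numbers (moving at most 0.00857% of a library). They were tested with edgeR 4.0.16 (glmQLFit, TMM, 1 coefficient per group, a minimum mean of 1 CPM) in R 4.3.3, with p-values adjusted over all genes tested. DESeq2 1.42.0 and limma 3.58.1 on log2(FPKM + 1) were alternatives. 29 IDs without a POX number took at most 0.067% of counts. Reads counted without molecular identifiers are not independent molecules, so intervals cover counting error or spread between libraries only.

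The gene and all lists were chosen with earlier results of these data known. Named were POX01960, the 9 cellulase and 4 xylanase genes, the genes deleted or overexpressed, 4 neighbours in numbering, the 5 genes most alike in each pattern and the 5 nearest by the choosing rule. The authors' FPKM per count put each time-course group's libraries into 3 quantification sets, 1 library per set in all 16 groups; libraries of 1 set deviated together (correlation of deviations 0.497 to 0.953 between dPOX01167 and Ku70). Letters of the mutants and of Ku70 1F, 1S and 1T did not pair (-0.033 to 0.144). Correlations used log2(CPM + 1) with 100000 permutations, or all orderings up to 9 libraries. The omission of Ku70 8, 9 and 10, the correlations within clusters of a kind of table, the other control libraries for the enzyme lists, and the tests of differences between media, times or lipids in dPOX01167 and dPOX07277 were added after seeing the data. The code was tested on simulated data. Of the reference's 9964 genes none matched the files' IDs, so no coordinates are given.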

Additional observations from a re-analysis of the deposited data

Results flagged for a closer look

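4 differences of differences in POX01960 passed an adjusted p of 0.05 in the test of the difference itself. The change from 12 h to 36 h in Ku70 was higher on WA than on AV by 1.93 on the log2 scale. The difference between the libraries labelled dPOX01167 and Ku70 at 36 h was higher on WA than on AV by 3.73. On AV the difference between these strains moved from 12 h to 36 h by -4.32. The difference between dPOX07277 and Ku70 was higher with arachidonic acid oil than with oleic acid by 1.204. Both values for dPOX01167 share the groups on AV at 36 h, and 5 of the 6 libraries with that label on AV hold counts of POX01167, whose part in both was not tested.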

How the results depend on the processing

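Of 26 comparisons of POX01960, 8 were called, and 16 kept their direction and their side of the threshold under every alternative run. The alternatives were DESeq2, limma, no filter, upper-quartile scaling, other sets of control libraries, and 1 library left out in turn. With dClrB in the model, the value of Ku70 on WA at 24 h against 12 h was 1.57 and that of the change with time on WA minus AV 1.93, no longer called. With the compared groups alone, dPOX07277 minus Ku70 for arachidonic acid oil minus oleic acid was 1.28, no longer called. Against Ku70 1F, 1S and 1T, dPOX04420 stood at -1.51 and OES1167 at -1.02, now called, and with the letter as a replicate block at -1.53 and -1.02. dPOX04420 was also called, at -1.47, against shallow tables without Ku70 8, 9 and 10. Signs turned in comparisons with no call: dPOX01167 on AV at 12 h to -0.090 with limma, and dPOX02968 to 0.048 with limma and to 0.20 against deep tables. With 1 library left out, values ran from -0.76 to 0.63 for dPOX01167 on AV at 12 h, from -0.18 to 0.083 for Ku70 on AV at 36 h against 12 h, from -0.063 to 0.20 for dPOX07277 with linolenic acid, and from -0.16 to 0.078 for Ku70 with linolenic against oleic acid. The correlation with the cellulase sum in deep tables was -0.026 without the 2 farthest libraries and 0.75 within its larger cluster. The cause of these shifts was not tested. The replicate block by quantification set changed no call in the time course: Ku70 on WA against AV at 12 h gave -2.49, and dPOX01167 on AV at 36 h -4.18. The wild-type libraries held as few as 58 counts of POX01960.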
